A study of Mus musculus with 8 samples.

Results

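Wnt-driven pericentral hepatocyte genes are genes that hepatocytes around the central vein of the liver lobule express in response to Wnt and β-catenin signaling. The 10 genes examined were *Glul*, *Oat*, *Lhpp*, *Slc1a2*, *Rhbg*, *Axin2*, *Rnf43*, *Znrf3*, *Lgr5* and *Tbx3*, chosen by name as known Wnt targets of these cells, and all 10 had a row among the 27179 genes of the deposited table. RNA was sequenced from livers after a 6-h fast. The mice were adult males of the strain C57BL/6NHsd, and 4 were wild-type and 4 homozygous for the V227A substitution of PPARɑ, a nuclear receptor that controls fatty acid metabolism. The substitution was made by adenine base editing of zygotes, and the colony descended from a heterozygous founder backcrossed to the same strain. The value used here is the authors' mean over all 8 libraries, so wild-type and V227A livers enter each level together. A difference between the genotypes, an SD and a test over mice therefore cannot be given from it.

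Central vein endothelial cells secrete Wnt ligands and R-spondins, and hepatocytes next to them stabilize β-catenin, which with TCF and LEF proteins turns on a narrow program of genes. This program takes up glutamate and ammonium that escaped urea synthesis in upstream, periportal hepatocytes and fixes them as glutamine. Several of the induced genes feed back on the pathway, either at the Wnt receptors or within the complex that degrades β-catenin. Loss of β-catenin in mouse hepatocytes is known to abolish expression of many of these genes.

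Starting regions of the genes are shown first, because TCF and LEF proteins act through short DNA motifs. RefSeq promoter windows of GRCm38.p6, 250 bases before to 50 bases after a start site, were found for 5 of the 10 genes, with 2 windows for *Rnf43* and 1 each for *Glul*, *Oat*, *Slc1a2* and *Axin2*. *Lhpp*, *Rhbg*, *Znrf3*, *Lgr5* and *Tbx3* had no entry. The letters searched on both strands were CTTTG followed by AA, AT, TA or TT. Only the *Slc1a2* window (chr2:102706188-102706487, plus strand) held them, as CTTTGAT read on the minus strand, 207 to 201 bases before the start site. The start site of this window lies inside the GENCODE span of the gene, not at its outer end. Of all 32851 windows, 16.9% held at least 1 such stretch, and 3.73% held CTTTGAT itself. CTTTG is also part of the HNF4A motif CAAAGTCCA read on the other strand. None of the 6 windows held that motif, which occurred in 0.475% of all windows. The windows of *Slc1a2*, of *Axin2* (chr11:108920099-108920398, plus strand) and of *Glul* (chr1:153899679-153899978, plus strand) are printed to set the window with the match beside a classic feedback target and the most abundant member. Capitals mark the matched letters.
*Slc1a2*: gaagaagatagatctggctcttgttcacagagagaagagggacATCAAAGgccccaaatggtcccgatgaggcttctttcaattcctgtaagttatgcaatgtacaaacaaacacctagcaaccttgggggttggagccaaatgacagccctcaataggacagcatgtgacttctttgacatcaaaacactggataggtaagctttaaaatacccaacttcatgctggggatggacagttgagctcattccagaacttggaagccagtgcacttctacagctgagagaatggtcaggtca
*Axin2*: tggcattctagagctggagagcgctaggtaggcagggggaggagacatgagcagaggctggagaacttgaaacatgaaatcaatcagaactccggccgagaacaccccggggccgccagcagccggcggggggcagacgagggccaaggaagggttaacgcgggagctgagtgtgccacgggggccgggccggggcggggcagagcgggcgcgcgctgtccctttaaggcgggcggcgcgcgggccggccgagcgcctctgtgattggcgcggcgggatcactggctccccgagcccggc
*Glul*: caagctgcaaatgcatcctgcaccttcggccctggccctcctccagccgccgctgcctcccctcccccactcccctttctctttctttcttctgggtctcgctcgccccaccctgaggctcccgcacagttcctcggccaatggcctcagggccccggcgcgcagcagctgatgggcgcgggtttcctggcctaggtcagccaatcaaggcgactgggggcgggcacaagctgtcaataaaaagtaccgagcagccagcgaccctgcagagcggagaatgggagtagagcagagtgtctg
The windows also differed in base composition. *Axin2*, with 70.0% G and C and 31 CG pairs, *Glul*, with 64.3% and 17, and *Oat*, with 61.7% and 22, lay above the median of all windows, 52.7% and 7 pairs. *Slc1a2* had 45.7% G and C and 1 CG pair, and the *Rnf43* windows had 46.7% and 44.3%. A match describes letters only, and a window without one says nothing about binding elsewhere in the gene.

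In these livers all 10 genes were expressed, and their levels covered a wide range. *Glul* and *Oat* together held 81.3% of the reads of the 10 genes, while *Lgr5* held 0.119%. The mean effective library size was 27474001 reads. The lowest member, *Lgr5*, still had an estimated 68.6 reads per library, against 100.1 for the median of the 18937 genes with reads. An estimated mean of at least 10 reads per library was reached by 10 of 10 members and by 68.9% of genes with reads. Wherever this limit is used below, it refers to the mean over the 8 libraries, since single libraries could not be seen. Counting error, as an exact Poisson 95% interval of the summed reads, was ± 0.417% for *Glul* and ± 8.46% for *Lgr5*. These intervals leave out the spread between mice, which is unknown here. In RNA from whole liver, fewer pericentral cells and less RNA per cell cannot be told apart.

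**Figure D1:**
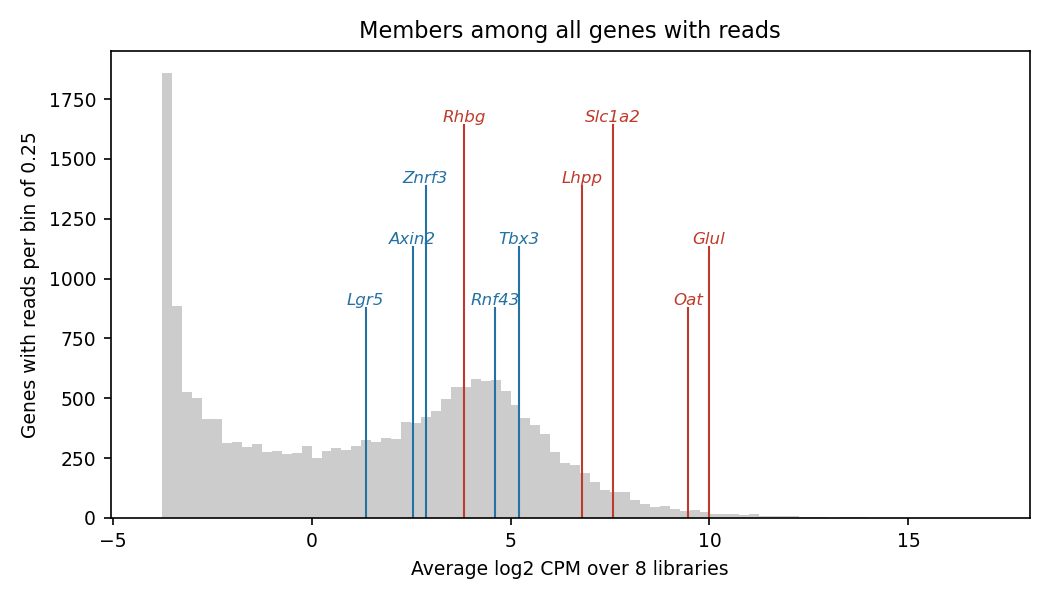
Distribution of the average log2 CPM over 8 libraries (x axis) for genes with reads, as the number of genes per bin of 0.25 (y axis). Lines mark the 10 members, red for enzymes and transporters and blue for Wnt feedback and transcription genes, and line heights only separate the names; *Lgr5* at 1.36 is the lowest and *Glul* at 9.98 the highest.

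Among the enzymes, *Glul* encodes glutamine synthetase, which joins ammonium to glutamate and marks the innermost ring of hepatocytes. It lies on chromosome 1 of GRCm38 from 153899944 to 153909723 on the plus strand, and its longest coding transcript has 7 exons and encodes 373 residues. The authors' mean level of *Glul* was 9.98 log2 CPM, an estimated 27663 reads per library. Only 125 of the genes with reads were higher. *Oat* encodes ornithine aminotransferase, which makes glutamate semialdehyde from ornithine in mitochondria and so feeds glutamate to glutamine synthesis. It is also in the amino acid metabolism set of PPARɑ target genes that the study assembled. *Oat* (chromosome 7, 132557478 to 132576398, minus strand, 10 exons) had a mean of 9.46 log2 CPM, an estimated 19281 reads per library. *Lhpp*, a phosphohistidine and pyrophosphate phosphatase, starts 34240 bases from *Oat* and is transcribed away from it (132610638 to 132706420, plus strand). Its mean was 6.80 log2 CPM, or 3066 reads per library, so of these neighbours *Oat* had the higher level. The annotated span of *Fgfr2* covers both and had an estimated 557 reads per library.

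The 2 transporters carry the substrates of glutamine synthesis. *Slc1a2* encodes the glutamate transporter GLT-1, best known from astrocytes, and lies on chromosome 2 (102658659 to 102790784, plus strand). Its mean level was 7.57 log2 CPM, an estimated 5224 reads per library. *Rhbg* encodes an ammonium transporter of the Rhesus protein family (chromosome 3, 88242874 to 88254709, minus strand) and was the lowest of this group, with 3.83 log2 CPM and 388 reads per library. The spans of *Rhbg* and of the annotated gene *Gm38392* overlap on the same strand, so the count of *Rhbg* is uncertain. *Gm38392* was not among the 27179 genes listed, and whether the overlap affected the count was not tested. *Glul* overlaps the opposite-strand gene *Teddm2* at its start, which had an estimated 1.64 reads per library. The strand setting of the counting is not stated in the sources used here.

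The feedback and transcription genes all had fewer reads than *Glul*, *Oat*, *Lhpp* and *Slc1a2*, while *Rnf43* and *Tbx3* had more than *Rhbg*. *Axin2* encodes a scaffold of the complex that degrades β-catenin and is widely used as a readout of the pathway. It lies on chromosome 11 (108920349 to 108950783, plus strand), and its mean level was 2.55 log2 CPM, an estimated 159 reads per library. *Rnf43* (chromosome 11, 87662722 to 87735539, plus strand) and *Znrf3* (chromosome 11, 5276324 to 5444847, minus strand) encode related membrane ubiquitin ligases that remove Frizzled receptors from the cell surface. Their means were 4.62 and 2.86 log2 CPM, or 674 and 198 reads per library. The span of *1110028F11Rik* overlaps that of *Rnf43* on the same strand, and it had an estimated 34.9 reads per library. *Lgr5*, a receptor for R-spondins that protects Frizzled from these ligases (chromosome 10, 115450311 to 115587780, minus strand), had 1.36 log2 CPM. *Tbx3*, a T-box transcriptional repressor (chromosome 5, 119670669 to 119684724, plus strand), was the highest of the 5 genes by reads, with 5.21 log2 CPM and an estimated 1012 reads per library.

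Genes of different length can be compared only per kb, so the estimated CPM (reads in a library scaled to 1000000) was divided by the merged exon length of each gene in GENCODE vM21, which gives CPM per kb. On this scale the order was *Glul* (303), *Oat* (297), *Lhpp* (46.2), *Slc1a2* (14.5), *Rhbg* (7.29), *Tbx3* (5.56), *Rnf43* (3.74), *Axin2* (1.05), *Znrf3* (0.913) and *Lgr5* (0.243). By merged exons all 5 enzymes and transporters stood above all 5 feedback and transcription genes, an order that did not hold for *Rhbg* with other lengths, and they made up 98.3% of the summed level per kb. The fold from the highest to the lowest member was 1246 by merged exons, 693 with the longest transcript and 981 with the coding length. By merged exons it was 41.6 within the enzymes and transporters and 22.9 within the other group. *Slc1a2* had more reads than *Lhpp* but the lower level per kb, since its merged exons span 13133 bases against 2416.

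Some neighbours in this order were close. *Glul* exceeded *Oat* by 1.02-fold, *Axin2* exceeded *Znrf3* by 1.15-fold and *Rhbg* exceeded *Tbx3* by 1.31-fold. Their counting intervals did not overlap, but whether such steps exceed the spread between mice was not tested. With the longest transcript as length, *Tbx3* (7.39) passed *Rhbg* (7.29). With the coding length, *Tbx3* (16.6) and *Rnf43* (10.4356) both passed *Rhbg* (10.3379), and *Znrf3* (2.63) passed *Axin2* (2.29). The first 4 places and the last did not change under either length.

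**Figure D2:**
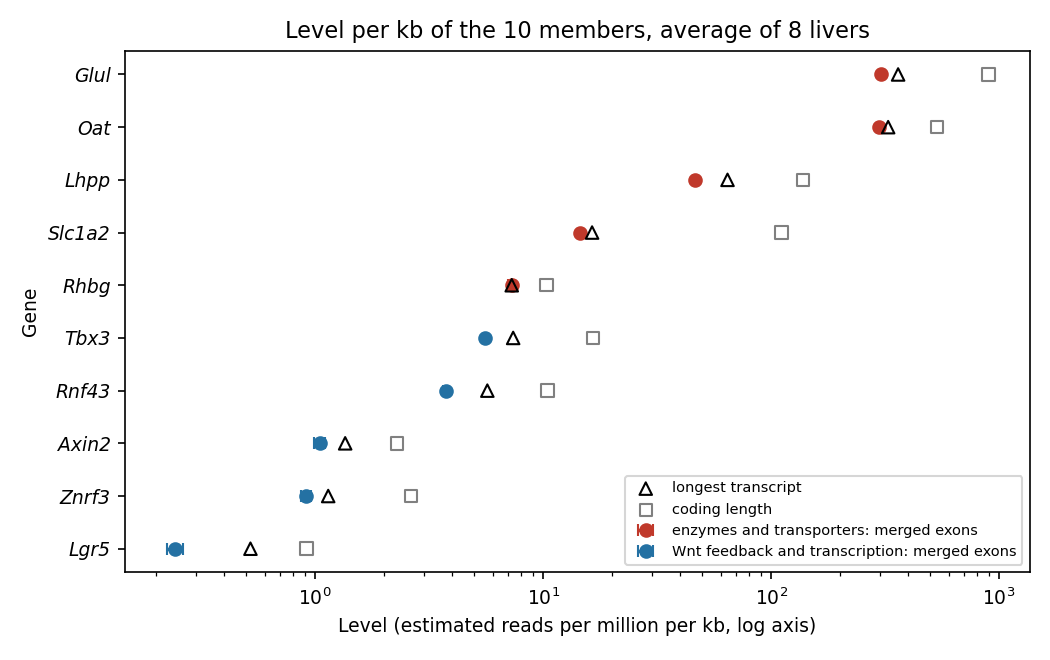
Level of each member in estimated CPM per kb (log x axis), from the authors' mean over 8 libraries. Filled points use merged exons, with bars for the 95% counting interval, and open triangles and squares use the longest transcript and the coding length; *Glul* and *Oat* lie near 300 and *Lgr5* at 0.243 by merged exons.

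Among all genes with reads, 9 of the 10 members lay above the median average log2 CPM, and *Lgr5*, at the 46.3 percentile, did not. *Glul* (99.3), *Oat* (99.0), *Slc1a2* (96.6) and *Lhpp* (94.2) were in the upper percentiles. *Tbx3* (83.6), *Rnf43* (77.1), *Rhbg* (67.7), *Znrf3* (57.6) and *Axin2* (54.9) followed, and the median over the 10 was 80.4. By level per kb, *Axin2* (49.7) and *Znrf3* (48.0) fell below the middle too, which left 7 of 10 above it.

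The Wnt pathway around these genes was listed by role. Of the 19 Wnt ligand genes, 7 had no reads, as did 8242 of all 27179 genes, and 5 reached 10 reads per library. Those 5 were *Wnt5b* (2.02 CPM per kb), *Wnt2* (1.10), *Wnt4* (0.644), *Wnt9a* (0.259) and *Wnt9b* (0.175). *Wnt2* and *Wnt9b* are the ligands known from central vein endothelium, and *Wnt2* was 6.27-fold higher per kb, with a counting interval of 5.26 to 7.46. Of 4 R-spondin genes, only *Rspo3*, the R-spondin of central vein endothelium, reached 10 reads per library (1.96 per kb). With the secretion factors *Wls* and *Porcn* included, 8 of 25 genes of the ligand list reached 10 reads per library, against 48.0% of all genes of the table. The lowest with reads was *Wnt7a* (0.00284 per kb, an estimated 0.248 reads per library).

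Of the 20 receptors and their adaptors, 14 (70.0%) reached 10 reads per library or more, 6 of the 10 Frizzled genes among them. Over all 27179 genes the share was 48.0%, and over genes with reads 68.9%. The highest per kb was *Dvl1*, an adaptor downstream of Frizzled (11.6), and the lowest *Lgr6* (6.71e-04, an estimated 0.126 reads per library). *Lgr4* and *Lgr6* are, like *Lgr5*, receptors for R-spondins. By merged exons *Lgr4* had 5.50 per kb, 22.6-fold the level of *Lgr5*, with a counting interval of 20.8 to 24.7. The interval leaves out the choice of length, which moved *Lgr5* from 0.243 to 0.521 per kb with the longest transcript.

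All 11 genes of β-catenin and its destruction complex reached 10 reads per library, between *Tnks* (0.277 per kb) and the kinase gene *Gsk3a* (26.7). *Ctnnb1*, which encodes β-catenin, had 22.1 per kb. *Axin1*, the constitutive counterpart of *Axin2*, had 6.33 per kb, 6.04-fold the level of *Axin2*, with a counting interval of 5.68 to 6.42. Of the 13 nuclear factors, 11 reached 10 reads per library. Beside both lists, the share was 48.0% over all 27179 genes and 68.9% over genes with reads. *Bcl9l*, a coactivator, was highest (5.97 per kb) and *Lef1* lowest (0.00569, an estimated 1.37 reads per library), while *Tcf7l1* (3.15), *Tcf7l2* (1.72) and *Tcf7* (1.27) lay between them.

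The list of antagonists and other feedback targets had 9 of 18 genes at 10 reads per library or more. That limit was reached by 48.0% of all 27179 genes and by 68.9% of genes with reads. *Notum*, a secreted enzyme that inactivates Wnt ligands by removing their lipid, was highest with 17.0 per kb, which was 3.06-fold the level of *Tbx3* and 16.2-fold that of *Axin2*. *Sfrp4* was lowest (0.00109, an estimated 0.125 reads per library). The median level per kb of genes with reads was 0.172 in this list and 0.156 in the ligand list, against 1.05 for the 5 feedback and transcription members and 1.07 for all genes with reads and a known length.

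**Figure D3:**
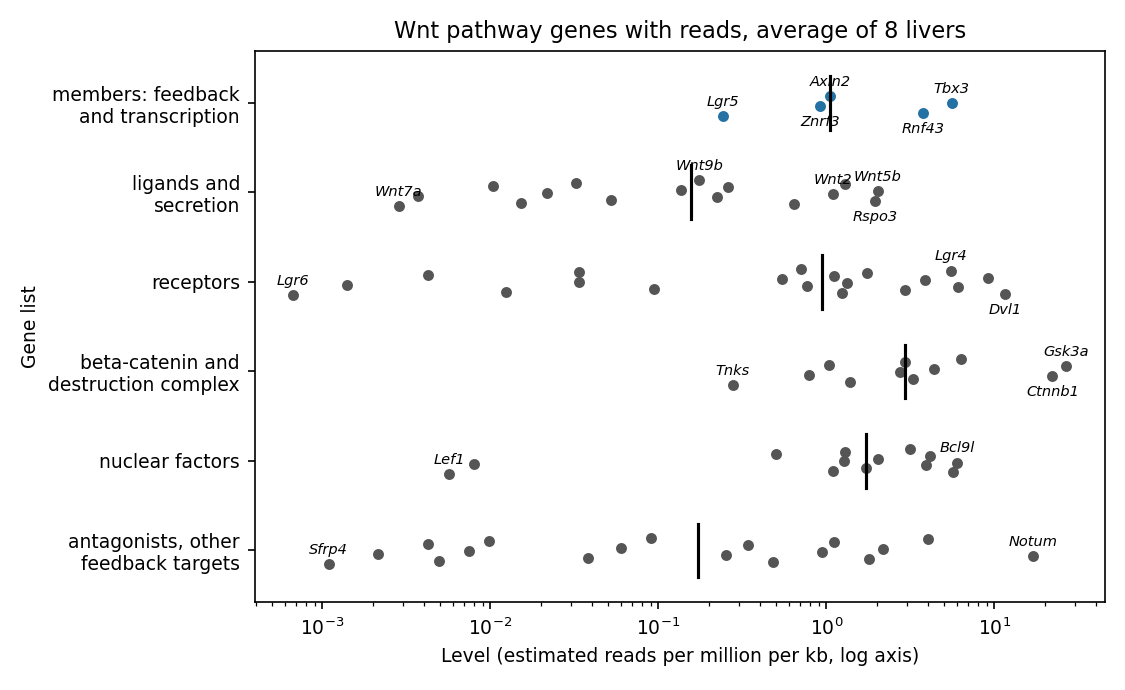
Level per kb (log x axis) of Wnt pathway genes with reads, each point 1 gene and each row 1 list, from the authors' mean over 8 libraries. Black bars are list medians over genes with reads, from 0.156 for ligands and secretion to 2.94 for β-catenin and its destruction complex.

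Other zonated hepatocyte genes were set beside the members. The 18 other pericentral genes had a median of 118 CPM per kb and reached from *Tenm2* (0.00159) to *Cyp2e1*, a cytochrome P450 of the wide pericentral zone (4916). *Tenm2* had only an estimated 0.500 reads per library. *Cyp2e1* stood 16.2-fold above *Glul*, and 5 of the 18 genes were higher than *Glul*. The 18 periportal genes had a median of 130 per kb and reached from *Ctsc* (4.33) to *Pck1*, the gluconeogenic enzyme PEPCK (1108), with 6 of them above *Glul*. *Gls2*, the periportal glutaminase that opposes glutamine synthetase, had 114 per kb, so *Glul* was 2.65-fold higher. *Cps1*, which commits ammonium to urea, had 332 per kb, 1.10-fold the level of *Glul*. These orders around *Glul* use merged exons only, and other lengths were not tried for the listed genes. *Glul* itself had 361 per kb with the longest transcript and 900 with the coding length, so its place beside close genes such as *Cps1* is not settled. For the 5 enzyme and transporter members the median was 46.2.

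**Figure D4:**
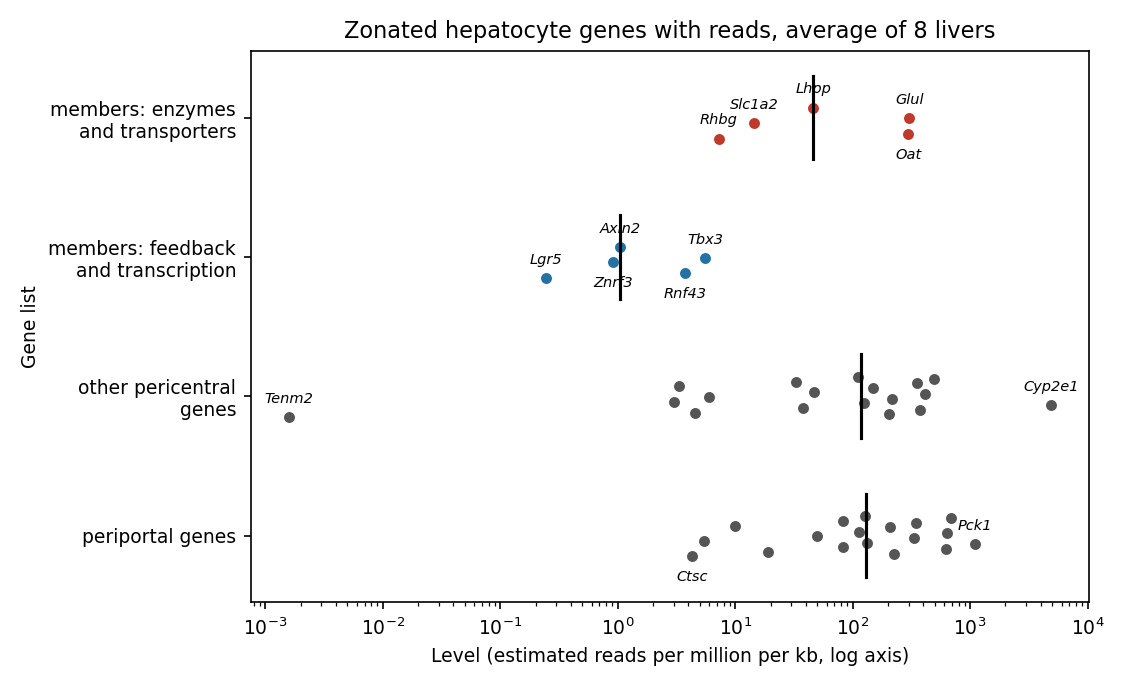
Level per kb (log x axis) of zonated hepatocyte genes with reads, each point 1 gene, from the authors' mean over 8 libraries. Black bars are list medians, 46.2 and 1.05 for the member groups, 118 for other pericentral genes and 130 for periportal genes.

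Markers of 5 liver cell types were listed beside the members, and no other tissue was compared. The 8 hepatocyte markers had a median of 3919 per kb, from *Apob* (208) to *Alb* (29709). Medians were 2.21 for 8 endothelial markers, from *Vwf* (0.366) to *Clec4g* (15.4), and 4.78 for 8 Kupffer cell markers, from *Adgre1* (1.45) to *Clec4f* (33.2). They were 1.17 for 5 cholangiocyte markers, from *Krt7* (0.176) to *Spp1* (14.5), and 2.05 for 5 stellate cell markers, from *Reln* (0.963) to *Colec11* (18.1). Every gene of these 5 lists reached 10 reads per library, against 48.0% of all 27179 genes and 68.9% of genes with reads. *Axin2*, *Znrf3* and *Lgr5* lay below the medians of these 5 lists, and the part of other cell types in their level was not tested.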

How the data were processed

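RNA from frozen livers was made into stranded poly-A libraries and sequenced as read pairs. According to the study's methods and the submitters' processing notes, the authors trimmed with Trimmomatic, aligned to GRCm38 with STAR, counted with featureCounts and ran edgeR; tool versions, annotation and strand setting are not given in the sources used here. The deposited table holds 4 columns of the authors' own comparison (log2 fold change, F, p-value and FDR), which were not used, and 0 columns of values per library. The planned test of V227A against wild-type could therefore not be run. The average log2 CPM used here was computed by the authors over all 8 libraries before it was deposited.

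Genes at the lowest average, -3.78, were taken as without reads (8242 of 27179). Reads per library of mean size were estimated from that value and a prior count of 2, the edgeR default of the authors' tool, which was then removed. Of 2378 genes with estimated totals of 1 to 5 reads over the libraries, 99.9% lay within 0.1 of a whole number. The levels of all genes summed to 1000590 CPM, against 1000000 if exact. The prior count cancels in this sum, so the sum cannot test the prior count or the reads per library. Counting intervals (95%) are exact Poisson for levels and Clopper-Pearson for ratios, and cover counting error only. Ratios to genes outside the members were computed with merged exons only, and their intervals leave out the choice of length. Lengths came from GENCODE vM21 (GRCm38) and were known for 94.8% of genes with reads. Promoter windows came from RefSeq. Python 3.11.15, pandas 2.3.3, numpy 2.4.6, scipy 1.17.1 and matplotlib 3.10.9 were used.

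The members and lists were chosen with earlier results of these data known. Named were all members, the highest and lowest gene of each list, and Wnt ligands and R-spondins with at least 10 reads per library; other genes (*Lgr4*, *Axin1*, *Ctnnb1*, the *Tcf7* genes, *Gls2*, *Cps1* and those in the closing section) were chosen after their values were seen. A planned comparison of the *Rnf43* and *Znrf3* proteins was not run.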

Additional observations from a re-analysis of the deposited data

How the results depend on the processing

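The median percentile of the 10 members, 80.4 among genes with reads, was 68.2 among the 11711 genes with an average log2 CPM of at least 0, 86.3 among all genes of the table and 77.4 by level per kb. The fold from the highest to the lowest member, 1246 by merged exons, was 693 with the longest transcript and 981 with the coding length, and 1211 with the prior count left in. Leaving the prior count in kept all 10 levels, and all 10 levels per kb, within their counting intervals. The coding length raised each level per kb, by 1.42-fold to 7.65-fold, and the longest transcript raised 9 of 10, by up to 2.14-fold (*Lgr5*). The *Slc1a2* match is CTTTGAT itself, so searches for CTTTGAT alone and for CTTTG with any letters after it had to find it again. The broader search added no other of the 5 members with a window. Of all windows, 3.73% held CTTTGAT and 53.9% held CTTTG. No paired analysis was possible because the value used is 1 mean over all libraries, and leaving out single libraries was not possible for the same reason. Depth limits *Lgr5*, *Axin2* and *Znrf3* most, with counting errors of ± 8.46%, ± 5.54% and ± 4.96%.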

Other observations

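Genes related to the members were looked up after the members' values had been seen. In the *Slc1a* family of glutamate and neutral amino acid transporters, *Slc1a2* (14.5 CPM per kb) was highest. *Slc1a5* (0.848) and *Slc1a4* (0.461) followed, with *Slc1a2* higher by 17.1-fold (counting interval 15.9 to 18.4) and 31.4-fold (28.4 to 34.7). The other glutamate transporters of the family were close to absent, at an estimated 4.76 reads per library for *Slc1a3*, 3.26 for *Slc1a7*, 1.25 for *Slc1a1* and 0.375 for *Slc1a6*.

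Of the Rhesus family ammonium transporters, *Rhbg* had 388 reads per library, *Rhag*, the red cell member, an estimated 0.125, and *Rhcg* was listed without reads. Of 12 other genes with a *Tbx* name, 3 were listed without reads and 3 reached 10 reads per library. Of all 27179 genes, 8242 were without reads and 48.0% reached 10 reads per library. *Tbx2*, the closest relative of *Tbx3*, was the highest of the other *Tbx* genes at 0.794 per kb, and *Tbx3* stood 7.01-fold above it (counting interval 6.46 to 7.61). *Rnf43* exceeded *Znrf3* by 4.10-fold per kb of merged exons (3.88 to 4.34). With the longest transcript their levels were 5.69 and 1.14. *Rspo3* exceeded *Rspo1* by 14.4-fold (11.1 to 19.1). These ratios use merged exons and describe the mean over wild-type and V227A livers, and the spread between mice behind them is unknown.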
